A study of Mus musculus with 2 samples.

Results

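The 41 genes described here encode the machinery that copies DNA in S phase and the enzymes and regulators that supply it. They were taken from the deposited gene tables by matching gene identifiers, without version, to symbols of the GENCODE M21 annotation, and all 41 were found among 43346 mouse gene entries. Total RNA had been sequenced from the whole urinary bladder of 2 newborn pups, postnatal day 0, of the C57BL/6-derived strain B6NCrl. Both pups came from the litter of 1 pregnant female, no pup carried a stated allele or treatment, and the sex was not collected. Each pup gave 1 library, made from 10 ng of RNA above 200 nt with spike-in RNAs added. The pups form a single group of biological replicates (n = 2), called pup 1 and pup 2 after the replicate numbers in the labels. The labels hold no contrast, so the questions are how strongly each gene was expressed, how subunits of one complex compared, and how far 2 littermates differed.

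Replication starts when the origin recognition complex, Cdc6 and Cdt1 load the ring of Mcm2 to Mcm7 onto DNA, a step called licensing that geminin (Gmnn) blocks outside its window. In S phase, Cdc45 and the GINS complex join the ring to form the active helicase, DNA polymerase alpha with its primase starts each strand, and polymerases epsilon and delta extend it on the sliding clamp Pcna, which replication factor C loads. E2F transcription factors bind the promoters of many of these genes, and in a newborn organ such transcripts mark tissue that still holds dividing cells. In RNA from a whole organ, fewer dividing cells and less RNA per cell cannot be told apart.

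The promoters are shown because E2F-type letters were frequent in them. RefSeq windows of 300 bases on GRCm38.p6, from 250 bases before the annotated start to 50 after, were held for 32 of the 41 genes, with 38 windows in all. Ccne2, Gins1, Gins2, Gins4, Gmnn, Mcm4, Pole, Prim2 and Rfc2 had no entry. The bases just after the start were found somewhere in a GENCODE M21 transcript of the gene for 32 of the 38 windows, but not for those of Mcm6 and Mcm5. A window inside an exon passes this check too, so all positions hold for the RefSeq start alone. For example, the windows of E2f1 and Cdc6 and the Mcm7 window printed below lay wholly within the annotated span of their gene. The E2F-type search took 4 words on both strands, TTTCCCGC, TTTGGCGC, TTTCGCGC and TTTGCCGC. Windows of 5 genes held more than 1 match, and they are printed 5′ to 3′ on the gene's strand, with the matched letters in capitals. Mcm6 lies at chr1:128359656-128359955 on the minus strand, Mcm3 at chr1:20820263-20820562 on the minus strand and Mcm5 at chr8:75109259-75109558 on the plus strand. The Mcm7 window with matches is chr5:138171834-138172133 on the minus strand, and that of Rfc3 is chr5:151651159-151651458 on the minus strand.
Mcm6: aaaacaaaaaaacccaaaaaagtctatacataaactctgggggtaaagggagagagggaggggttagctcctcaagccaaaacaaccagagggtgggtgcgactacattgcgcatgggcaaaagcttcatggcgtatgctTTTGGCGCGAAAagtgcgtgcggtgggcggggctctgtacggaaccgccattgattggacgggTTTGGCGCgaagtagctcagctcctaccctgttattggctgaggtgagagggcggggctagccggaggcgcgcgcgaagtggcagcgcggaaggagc
Mcm3: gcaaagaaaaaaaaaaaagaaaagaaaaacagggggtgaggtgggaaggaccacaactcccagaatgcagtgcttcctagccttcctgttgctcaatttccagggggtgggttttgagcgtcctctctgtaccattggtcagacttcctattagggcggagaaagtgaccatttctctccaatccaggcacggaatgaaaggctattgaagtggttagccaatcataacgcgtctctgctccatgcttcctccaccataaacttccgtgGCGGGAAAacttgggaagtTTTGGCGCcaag
Mcm5: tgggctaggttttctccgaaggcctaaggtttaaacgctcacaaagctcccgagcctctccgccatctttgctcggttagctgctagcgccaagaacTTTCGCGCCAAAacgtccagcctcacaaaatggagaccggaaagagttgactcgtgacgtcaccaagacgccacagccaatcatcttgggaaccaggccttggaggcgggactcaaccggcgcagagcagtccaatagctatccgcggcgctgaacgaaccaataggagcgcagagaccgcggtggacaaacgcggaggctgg
Mcm7: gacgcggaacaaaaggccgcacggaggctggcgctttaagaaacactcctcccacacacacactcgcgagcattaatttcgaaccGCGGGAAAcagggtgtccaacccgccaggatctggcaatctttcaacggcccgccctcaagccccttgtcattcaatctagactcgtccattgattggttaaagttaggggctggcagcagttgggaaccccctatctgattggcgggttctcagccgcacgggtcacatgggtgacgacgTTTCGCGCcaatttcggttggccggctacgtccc
Rfc3: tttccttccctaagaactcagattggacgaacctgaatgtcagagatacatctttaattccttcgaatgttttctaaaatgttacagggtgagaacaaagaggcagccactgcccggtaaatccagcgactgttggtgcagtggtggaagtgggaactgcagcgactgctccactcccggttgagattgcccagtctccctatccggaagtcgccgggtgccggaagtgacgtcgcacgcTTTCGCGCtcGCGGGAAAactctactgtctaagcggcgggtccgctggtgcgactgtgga
The Mcm6 window held 3 matches, of which 2 overlapped on opposite strands to form 1 run of 12 letters. In Mcm5 the 2 matches overlapped in the same way. In Rfc3 1 match ended 3 bases before the annotated start and the other began at the start. In Mcm7 the match after the start shared its last base with a CCAAT box.

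E2F-type letters stood in 14 of the 38 windows, or 36.8%, against 2.26% of all 32851 windows in the table and 3.89% of the 12603 windows of protein-coding genes expressed in both pups. By gene, 14 of 32 held a match: Mcm3, Mcm5, Mcm6 and Mcm7 of the helicase, Orc1, Cdc6 and Cdt1 of licensing, Gins3, the polymerase genes Pola1, Pold1 and Pole2, and Rfc3, Lig1 and Uhrf1. The 20 matches began between 185 bases before and 39 bases after the start, at a median of 34 bases before it. A list of 62 further replication genes, given below, had windows for 51, of which 16 (31.4%) held a match. Counted by gene in the same way, the share of the 32 members was 43.8%. The shares for all windows and for expressed coding genes were counted by window only.

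The shares of other promoter words lay closer to those of expressed coding genes. These words have 5 or 6 letters against 8 in the E2F-type words, and shares were not matched for word length. A share of 62.4% in expressed coding genes (GC box) leaves less room above it than one of 3.89% (E2F-type). The CCAAT box (CCAAT) stood in 55.3% of the members' windows, in 37.4% of all windows and in 37.5% of those of expressed coding genes. The GC box (GGGCGG), which can share letters with an E2F-type word, stood in 73.7% of them, in 35.7% of all windows and in 62.4% of those of expressed coding genes. The CHR-type words TTTGAA and TTCGAA, known from genes of mitosis, stood in 18.4% of the members' windows, in 19.2% of all windows and in 13.8% of those of expressed coding genes. The TATA word TATAAA stood in 7.89%, in 13.6% and in 7.04%. A match describes letters only, and no binding was measured.

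**Figure D1:**
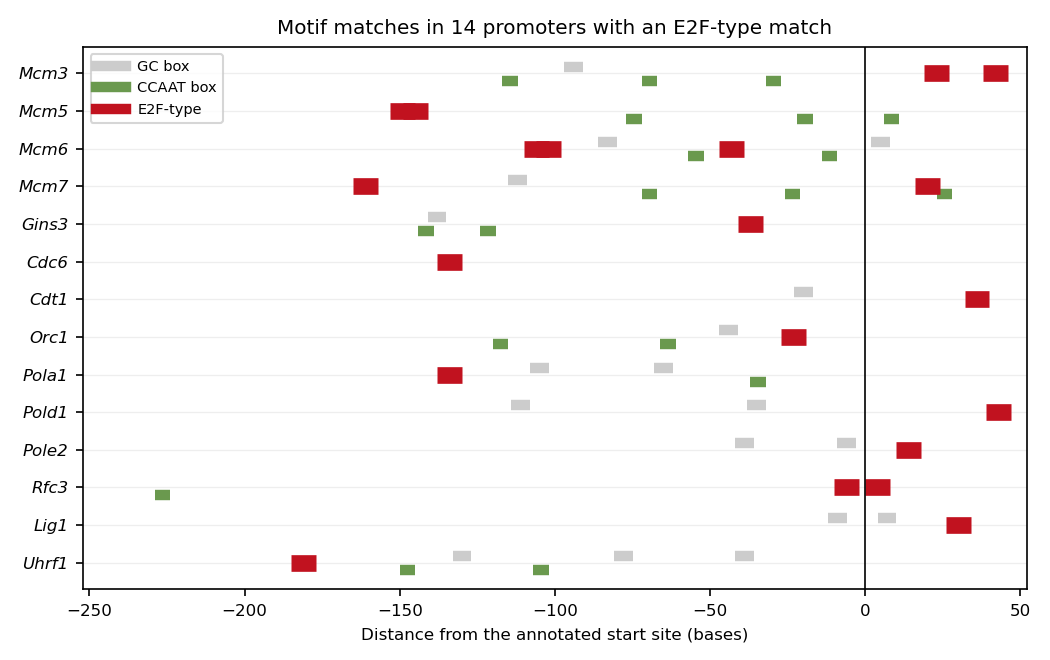
Positions of E2F-type, CCAAT and GC box matches in the 14 promoter windows with an E2F-type match, 1 row per gene, on an axis of distance in bases from the annotated start site (vertical line). E2F-type matches lie on both sides of the start, from 185 bases before it in Uhrf1 to 39 after it in Pold1, and Mcm6 has 3.

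The libraries held 43653536 expected counts in mouse genes for pup 1 and 32564256 for pup 2. The labelled tissue was matched by its markers: 6 smooth muscle genes summed to 59133 and 54169 TPM in pups 1 and 2, and 6 urothelial genes to 7706 and 7213 TPM. Blood cell markers stood apart between the pups, with 7 erythroid genes at a summed 21722 and 59106 TPM.

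All 41 genes were expressed in both bladders, where expressed means at least 1 TPM, a relative transcript level corrected for length. Their median level was 29.6 TPM in pup 1 and 24.4 TPM in pup 2. Over both pups the median was 27.4 TPM, against 12.9 TPM for all 13834 expressed genes and 14.3 TPM for the 12568 that code for protein. The lowest was Orc1 at 2.66 ± 0.834 TPM (SD, n = 2), at percentile 13.3 of expressed genes, and the highest was Pcna at 82.0 ± 13.9 TPM, at percentile 87.7. The pups ordered the genes nearly alike: 768 of 820 pairs had the same member higher in both pups (Spearman's rho 0.965 across the 41 genes, which share their libraries). The median coefficient of variation between the pups was 18.2%.

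**Figure D2:**
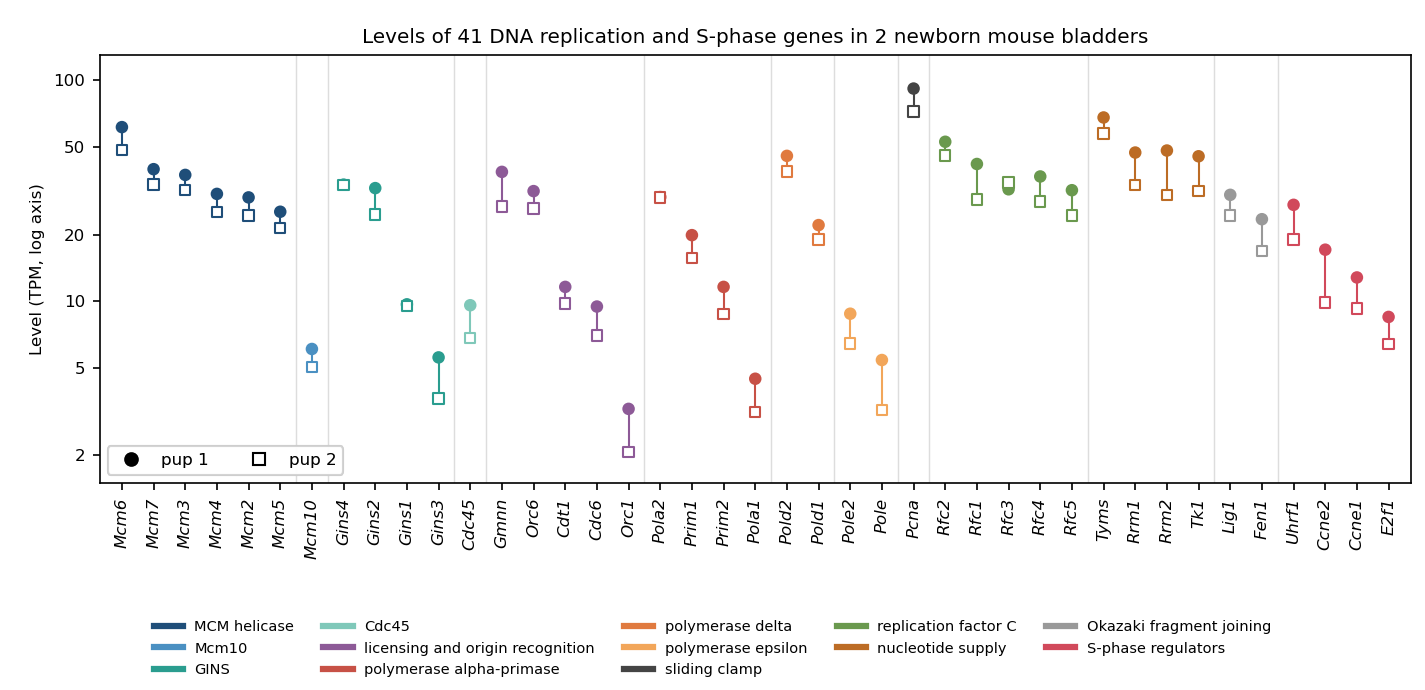
Level in TPM (log axis) of each of the 41 genes in pup 1 (filled circles) and pup 2 (open squares), grouped by complex or role, with a line joining the pups. Pcna is highest in both pups, Orc1 is lowest, and pup 2 lies below pup 1 for all genes but Rfc3.

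Among licensing genes, Gmnn and Orc6 stood well above Cdt1, Cdc6 and Orc1. Gmnn, the inhibitor of Cdt1, was at 38.5 TPM in pup 1 and 26.8 TPM in pup 2. Orc6, the smallest subunit of the origin recognition complex, was at 31.5 and 26.3 TPM. The values of Gmnn and Orc6 overlapped between the pups, so their order does not exceed their spread. Cdt1, which brings the Mcm ring to the origin, was at 11.6 and 9.74 TPM, and Cdc6, its ATPase partner, at 9.45 and 6.99 TPM. Orc1, the origin recognition subunit that is degraded and rebuilt with the cell cycle, lay at chromosome 4, 108579423 to 108614833 on mm10, and reached only 3.25 and 2.07 TPM from 240 and 132 counts. Orc6 thus exceeded Orc1 by 9.70-fold in pup 1 and 12.71-fold in pup 2, and Gmnn exceeded Cdt1 by 3.33-fold and 2.75-fold. The full order of these 5 genes was the same in both pups, for 10 of 10 pairs.

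The ring helicase holds its 6 Mcm subunits in equal numbers, and their RNAs lay within 2.42-fold of each other in pup 1 and 2.25-fold in pup 2. Mcm6 stood above the rest at 61.4 TPM in pup 1 and 48.3 TPM in pup 2. Mcm7 followed at 39.6 and 33.7 TPM and Mcm3 at 37.3 and 31.9 TPM. Even the lower pup of Mcm6 exceeded the higher pup of Mcm7, and within each pup Mcm6 was above Mcm7 by 1.55-fold and 1.43-fold. Mcm4 had 30.6 and 25.3 TPM, Mcm2 29.5 and 24.4 TPM, and Mcm5 25.4 and 21.4 TPM. All 15 pairs kept their order in both pups, although Mcm7 with Mcm3, Mcm4 with Mcm2 and Mcm2 with Mcm5 overlapped between the pups. The order below Mcm6 depended on the transcripts counted. Over full-length coding transcripts alone the means were 54.75 TPM for Mcm6, 27.95 TPM for Mcm4, 26.95 TPM for Mcm2, 26.65 TPM for Mcm7, 23.9 TPM for Mcm3 and 23.4 TPM for Mcm5, which put Mcm7 and Mcm3 below Mcm4 and Mcm2.

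Of the factors that turn the loaded ring into a moving helicase, Mcm10, Cdc45, Gins1 and Gins3 lay below every ring subunit in both pups, while Gins4 and Gins2 lay in the range of the ring. Mcm10, needed to activate the helicase, was at 6.07 and 5.04 TPM, so that Mcm2 exceeded it by 4.85-fold in each pup. Over full-length coding transcripts alone Mcm10 was lower, at a mean of 3.03 TPM, and Mcm2 was unchanged. Cdc45 was at 9.58 TPM in pup 1 and 6.80 TPM in pup 2, with Mcm2 above it by 3.08-fold and 3.59-fold. The GINS complex also holds its 4 subunits in equal numbers, yet their RNAs spread further than those of the ring. Gins4 was at 33.7 and 33.6 TPM and Gins2 at 32.5 and 24.7 TPM. Gins1 was at 9.67 and 9.53 TPM and Gins3 at 5.56 and 3.62 TPM. Gins4 therefore exceeded Gins3 by 6.06-fold in pup 1 and 9.28-fold in pup 2, and the order of all 6 pairs was the same in both pups with no overlap between neighbours. Most of the Gins2 level came from a short transcript with a retained intron, and over full-length coding transcripts alone Gins2 was at a mean of 5.80 TPM, below Gins1 at 8.93 TPM.

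Within polymerase alpha-primase, the accessory subunit of the polymerase far exceeded its catalytic one. Pola2, the regulatory subunit, was at 29.6 TPM in pup 1 and 29.5 TPM in pup 2, and the catalytic Pola1 at 4.45 and 3.14 TPM, a ratio of 6.65 and 9.39. The primase genes lay between them, with the catalytic Prim1 at 19.9 and 15.7 TPM and the large subunit Prim2 at 11.6 and 8.72 TPM. In the primase the catalytic gene was thus the higher. For the other replicative polymerases, the accessory genes Pold2 and Pole2 were above the catalytic ones. Pold2 of polymerase delta, which extends the lagging strand, was at 45.5 and 38.7 TPM, and its catalytic Pold1 at 22.1 and 19.0 TPM, a ratio of 2.06 and 2.04. Pole2 of polymerase epsilon, which extends the leading strand, was at 8.77 and 6.42 TPM, and the catalytic Pole at 5.41 and 3.22 TPM, a ratio of 1.62 and 1.99. Pold1 exceeded Pole by 4.09-fold in pup 1 and 5.89-fold in pup 2. Full-length coding transcripts gave a mean of 12.6 TPM for Pold1, 33.0 TPM for Pold2 and 1.17 TPM for Pole, so the accessory subunits stayed above on that measure too.

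Pcna, on chromosome 2 from 132249162 to 132253314 of mm10, encodes the clamp that holds polymerases on DNA and reached 91.8 TPM in pup 1 and 72.2 TPM in pup 2. By gene level the clamp loader genes lay close together, with 1.66-fold in pup 1 and 1.87-fold in pup 2 between Rfc2 and Rfc5. Rfc2 led at 52.7 and 45.7 TPM. Rfc1, the large subunit that opens the clamp, was at 41.8 and 28.9 TPM. Most of that came from transcripts of 485 nt (18.69 and 15.34 TPM) and 685 nt (11.14 and 3.82 TPM). Its transcripts of 4751, 4694 and 3588 nt were each at 6.34 TPM or less in both pups. The place of Rfc1 among the loader genes thus rested on short transcripts. Rfc3 was at 32.1 and 34.4 TPM, Rfc4 at 36.7 and 28.3 TPM, and Rfc5 at 31.8 and 24.4 TPM. Below Rfc2 the neighbours in this order of mean level overlapped between the pups, and 8 of 10 pairs kept their order. The enzymes that finish Okazaki fragments were lower than the clamp that recruits them. Lig1, the ligase, was at 30.3 and 24.4 TPM, of which full-length coding transcripts gave a mean of 7.37 TPM, and Fen1, the flap nuclease, at 23.5 and 16.9 TPM. Pcna exceeded Fen1 by 3.91-fold and 4.28-fold, and Lig1 by 3.03-fold and 2.96-fold.

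The nucleotide supply genes were the highest group after the clamp, with a median of 39.8 TPM over 4 genes. Tyms, which makes thymidylate, was at 67.9 TPM in pup 1 and 57.5 TPM in pup 2, a gene level that rested mainly on short transcripts described below. Rrm1, the large subunit of ribonucleotide reductase, was at 47.1 and 33.6 TPM, and Rrm2, the small subunit whose protein is limited to S phase, at 48.1 and 30.3 TPM. Rrm1 over Rrm2 was 0.98 in pup 1 and 1.11 in pup 2, so that their order differed between the pups. Tk1, the salvage kinase for thymidine, was at 45.3 and 31.6 TPM.

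Regulators of S phase entry were among the lower members. E2f1, an activator of this programme, was at 8.48 TPM in pup 1 and 6.38 TPM in pup 2. Ccne1, a cyclin that activates Cdk2, was at 12.8 and 9.24 TPM. Its paralogue Ccne2 was at 17.1 and 9.86 TPM, so that the ratio of Ccne2 to Ccne1 was 1.34 in pup 1 and 1.07 in pup 2. Uhrf1, which guides maintenance DNA methylation behind the fork, was higher at 27.3 and 19.0 TPM.

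Between the littermates, replication genes were mostly lower in pup 2. For this comparison expected counts were scaled by the TMM method. A log2 ratio, pup 2 divided by pup 1, was computed for each of 15605 genes averaging 20 counts or more, with a 95% exact binomial interval that covers counting error only. With 1 library per animal no test across animals can be made. The 41 genes had a median log2 ratio of -0.30, a level 1.23-fold lower in pup 2, against -0.01 for all genes. In pup 2, 37 of the 41 were lower, where 52.6% of all genes were lower. By at least 1.2-fold, 24 of the 41 were lower, against 14.3% of all genes, and 0 were higher, against 16.2%. A difference of 2-fold was reached by 0 of the 41 genes and by 3.71% of all genes. The counting interval lay wholly below 0 for 37 genes, against 26.0% of all genes, and wholly above 0 for 1 gene, against 21.3%. The shares for intervals and for 2-fold were not matched for counts. Every member averaged at least 186 counts, while the genes behind these shares went down to 20, where intervals are wider. The lists were chosen with earlier results of these data known, so these counts are a description of these libraries.

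Ccne2 differed most, from 1442 counts in pup 1 to 582 in pup 2, with a log2 ratio of -0.91 (interval -1.05 to -0.77). It lies on chromosome 4 from 11191351 to 11204779. The catalytic Pole followed at -0.63 (-0.86 to -0.41), Rrm2 at -0.59 (-0.69 to -0.50) and the catalytic Pola1 at -0.56 (-0.75 to -0.38). Gins3 was at -0.54 (-0.79 to -0.29) and Tk1 at -0.51 (-0.63 to -0.38). These 6 genes span regulators, polymerases, helicase and nucleotide supply, so the lowest ratios were not in 1 complex.

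Complexes did not shift alike. All 6 subunits of the ring were lower in pup 2, within a narrow range from -0.26 (Mcm6) to -0.14 (Mcm7), and Mcm6 alone was lower by at least 1.2-fold. The 4 S phase regulators were all lower by at least 1.2-fold (14.3% of all genes), with a median of -0.41. So were both polymerase epsilon genes and both genes of Okazaki fragment joining. Of the nucleotide supply genes, 3 of 4 were lower by that margin, with Tyms at -0.18. Licensing genes had a median of -0.42, from Orc1 at -0.45, Cdc6 and Gmnn at -0.42 to Orc6 at -0.18 and Cdt1 at -0.17.

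Only 4 genes had a ratio above 0. Rfc3 was at 0.19 (0.07 to 0.32), from 1118 and 966 counts, and its interval excluded 0, while the other 4 loader genes were lower in pup 2, from -0.34 (Rfc4) to -0.13 (Rfc2). Gins4 at 0.08 (-0.04 to 0.20), Pola2 at 0.07 (-0.02 to 0.17) and Gins1 at 0.04 (-0.22 to 0.30) had intervals that included 0. In GINS and in polymerase alpha-primase the subunits therefore parted, and for the ratio of TPM instead of scaled counts Gins4, Pola2 and Gins1 changed sign to lower in pup 2. By that ratio 40 of the 41 genes were lower, against 63.8% of all genes. Genes with and without an E2F-type match in their windows had like medians, -0.30 over 14 genes and -0.32 over 18. The 18 include E2f1, whose window, chr2:154569377-154569676 on the minus strand, lay inside the gene. The annotated gene begins at 154569892, and the sequence before that base was not searched. The median level was 21.8 TPM for genes with a match and 29.2 TPM for those without.

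**Figure D3:**
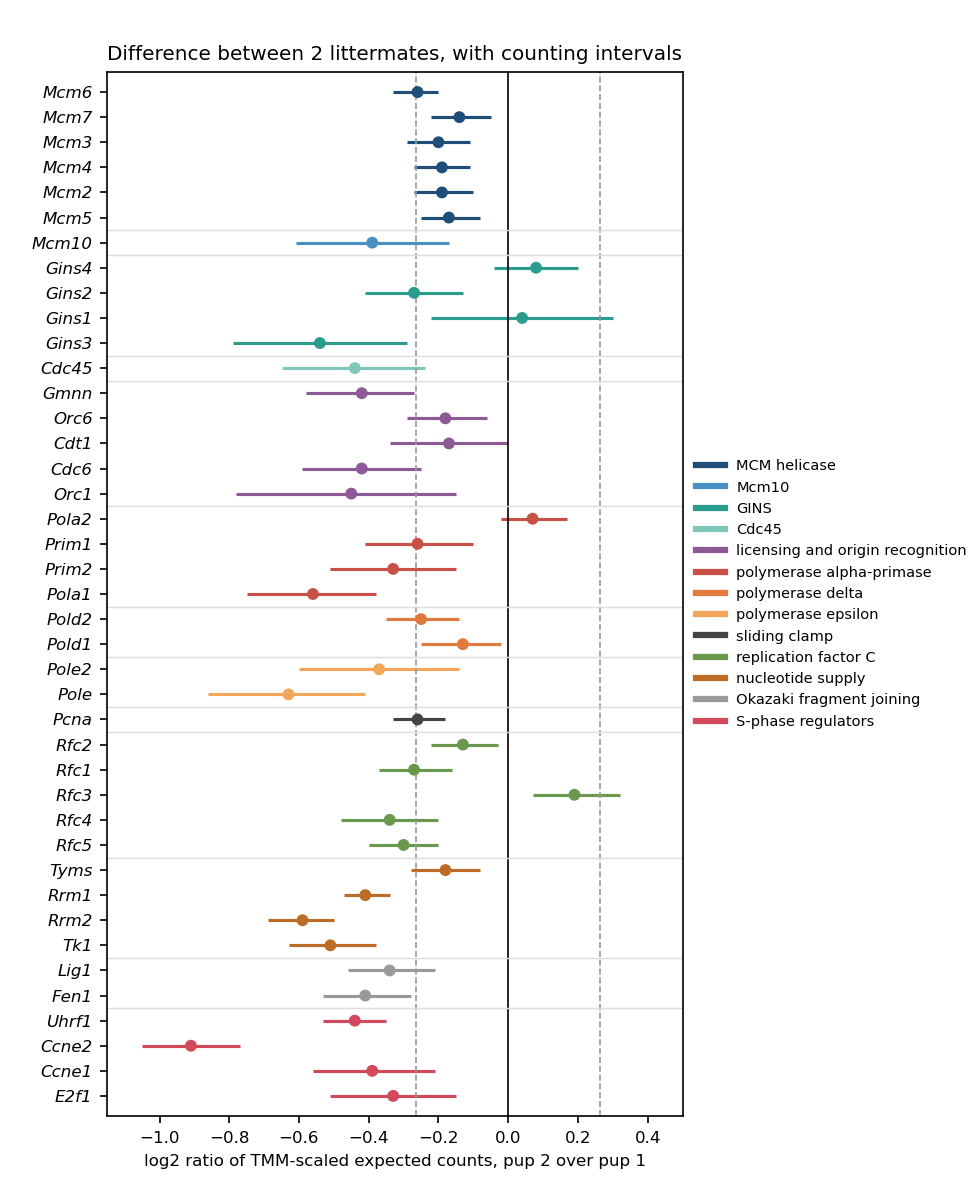
Log2 ratio of TMM-scaled expected counts, pup 2 over pup 1, for each of the 41 genes, with 95% counting intervals as bars; the solid line marks equality and dashed lines mark 1.2-fold in either direction. Most points lie left of 0, Ccne2 is lowest at -0.91, and Rfc3 at 0.19 is the only gene whose interval lies above 0.

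Cell type markers moved between the pups as well. In pup 2, 7 of 7 erythroid genes and 6 of 6 macrophage genes were higher by at least 1.2-fold, against 16.2% of all genes. The macrophage genes went from a summed 468 to 1662 TPM. Neutrophil markers were at a summed 36.6 TPM in pup 1 and 376 TPM in pup 2. Most of those sums came from S100a8 (24.6 and 263 TPM) and S100a9 (8.9 and 106 TPM). Of the 4 neutrophil genes that reached the count minimum, 3 were higher by at least 1.2-fold. The other, Mpo, was at -0.55 (-1.55 to 0.40) on 29 and 15 counts. Hepatic markers were lower for 5 of 5 genes, from a summed 70.2 to 18.7 TPM, and skeletal muscle markers for 5 of 5, from 1371 to 1053 TPM. Over all genes 52.6% were lower. By at least 1.2-fold, 4 of 5 hepatic and 4 of 5 skeletal muscle genes were lower, against 14.3% of all genes. Ttr, at -0.26 (-0.59 to 0.06), and Ckm, at -0.05, fell short of that margin. Of the bladder's own markers, smooth muscle genes had a median log2 ratio of -0.12, urothelial genes 0.04, fibroblast genes -0.09 and endothelial genes -0.02. None of these markers was at 0 in both pups, and their part in the difference of the replication genes was not tested.

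The wider replication list showed a smaller shift. Of 62 further genes, 59 were expressed in both pups, with a median log2 ratio of -0.19, and 50 of 62 were lower in pup 2 (52.6% of all genes). By at least 1.2-fold, 22 were lower, against 14.3% of all genes, and 1 was higher, against 16.2%. The highest by level were Rpa1, the large single-strand binding subunit, at 89.0 and 82.4 TPM, the histone chaperone gene Ssrp1 at 85.5 and 75.8 TPM, and Tfdp1, the partner of E2F proteins, at 85.9 and 68.7 TPM. The lowest were Mcmdc2, a meiotic relative of the Mcm genes, at 0.30 and 0.51 TPM, the helicase gene Recql4 at 0.69 and 0.49 TPM, and the firing factor Ticrr at 0.99 and 0.48 TPM. Ticrr also had the lowest ratio at -0.97 (-1.36 to -0.59), followed by Fbxo5, an inhibitor of the anaphase-promoting complex, at -0.77 (-0.96 to -0.58). The highest ratios were those of Pold4, a small subunit of polymerase delta, at 0.43 (0.30 to 0.57) and the RNase H2 subunit gene Rnaseh2a at 0.25 (0.13 to 0.37).

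By role, the medians of the further genes differed. Firing factors had a median ratio of -0.33, with 6 of 8 lower by at least 1.2-fold, and S phase regulators -0.34, with 6 of 11. Over all genes 14.3% were lower by that margin. All 9 genes of chromatin assembly were lower (52.6% of all genes), at a median of -0.24. Non-catalytic polymerase subunits were at -0.02 and single-strand binding subunits at -0.10. Of these 7 genes 0 were lower by 1.2-fold, too few genes to set apart from the 14.3% of all genes. The 4 remaining origin recognition genes, Orc2 to Orc5, had a median level of 27.1 TPM and a ratio of -0.16.

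Genes of mitosis stood lower still in pup 2. All 25 genes of a mitosis list were lower, against 52.6% of all genes, and 23 of them by at least 1.2-fold, against 14.3%. Their median was -0.50, with a range from -0.82 for Kif11, a spindle motor, to -0.01 for Cenpa, the centromeric histone. Their summed level was 728 TPM in pup 1 and 527 TPM in pup 2, and that of the 41 replication genes was 1177 and 937 TPM.

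**Figure D4:**
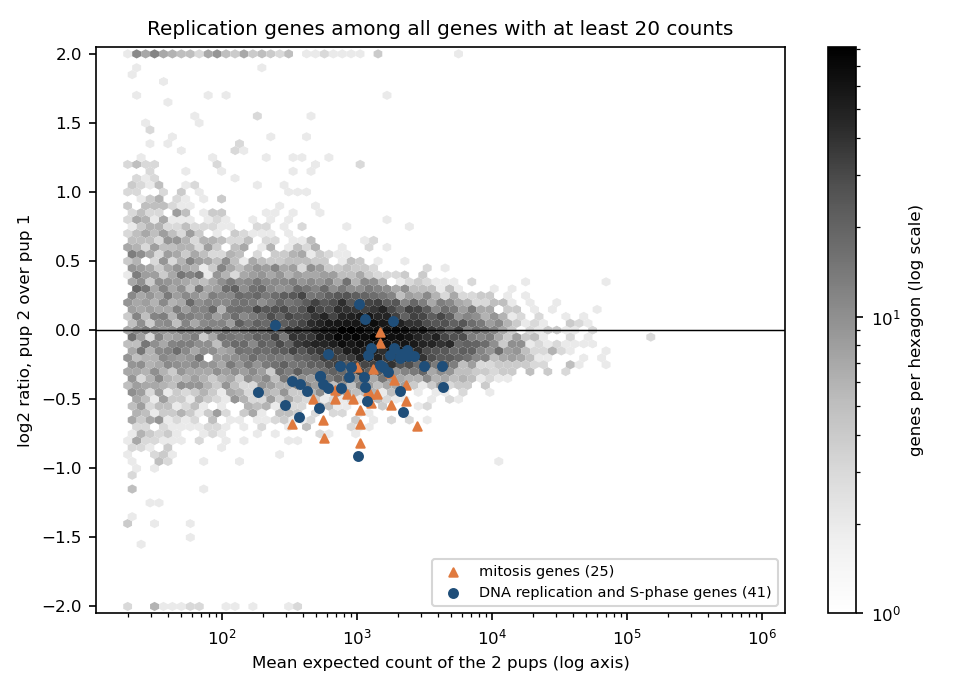
Log2 ratio of pup 2 over pup 1 against mean expected count (log axis) for all 15605 genes averaging 20 counts or more, shaded by density, with the 41 replication genes as circles and the 25 mitosis genes as triangles; ratios beyond 2 in either direction are drawn at the edge. The replication genes lie mostly below 0 with a median of -0.30, and the mitosis genes with a median of -0.50.

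The gene levels hide differences in which transcripts the reads were given to. The 41 genes had 187 annotated transcripts in the deposited files, and classes were taken from the annotation, calling a transcript full-length when its coding part was at least 90% of the longest of its gene. Over 40 genes, full-length coding transcripts held a median of 93.0% of the gene's TPM averaged over the pups, and 21 genes had over 90% in both. That share was fixed by the annotation for the 9 genes with only 1 annotated transcript: Cdt1, Gins3, Gins4, Mcm2, Mcm4, Mcm5, Pole2, Rfc2 and Rrm1. Rfc1 was left out, since transcripts that GENCODE M21 lacks held most of its level, led by one of 485 nt with 44.8% and 53.2%.

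In 4 genes full-length transcripts held less than 50% of the level in both pups. Tyms was the most extreme, at 6.4% in pup 1 and 5.1% in pup 2. Its leading transcript, Tyms-205 of 797 nt, is annotated as a target of nonsense-mediated decay and held 45.6% and 48.2%, and the retained-intron transcript Tyms-202 of 816 nt held 36.6% and 34.4%. The full-length Tyms-201 was at 4.37 and 2.94 TPM, where the whole gene was at 67.9 and 57.5 TPM. Counted by reads and not per length, full-length transcripts of Tyms held 18.9% and 15.3%.

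In Gins2 the retained-intron transcript Gins2-204 of 511 nt led with 67.8% in pup 1 and 68.7% in pup 2, and the full-length Gins2-201 of 3900 nt was at 6.62 and 4.97 TPM. By reads, however, full-length transcripts held 68.2% and 65.2% of Gins2. Lig1 was led by the shorter coding transcript Lig1-206 of 944 nt, at 46.0% and 51.7%. Pole was the only member whose leading transcript differed between the pups, the full-length Pole-201 at 28.0% in pup 1 and the retained-intron Pole-206 at 36.5% in pup 2, on 499 and 243 counts for the whole gene. Lig1, which the naming rule did not reach, was added after its values were seen. Fen1 was led by Fen1-202 at 42.9% and 47.6%, but the 3 transcripts detected were all full-length.

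Retained introns also held a share in Tk1, at 38.0% in pup 1 and 45.2% in pup 2, and in Mcm10, at 26.4% and 44.2%. They held 33.4% and 31.0% of Pold1, 29.3% and 33.0% of Mcm3, and 27.1% and 51.2% of Pole. Counted over full-length coding transcripts alone, 36 of 40 genes were lower in pup 2, against 54.8% of 13327 genes treated alike, and 24 by at least 1.2-fold, against 16.2%. The median log2 ratio was -0.33, and -0.03 over all those genes. The order of levels changed more, with a Spearman's rho of 0.796 across the 40 genes between gene level and full-length level averaged over the pups. How reads are divided among transcripts is an estimate by the authors' program, and it depends on the annotated ends.

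**Figure D5:**
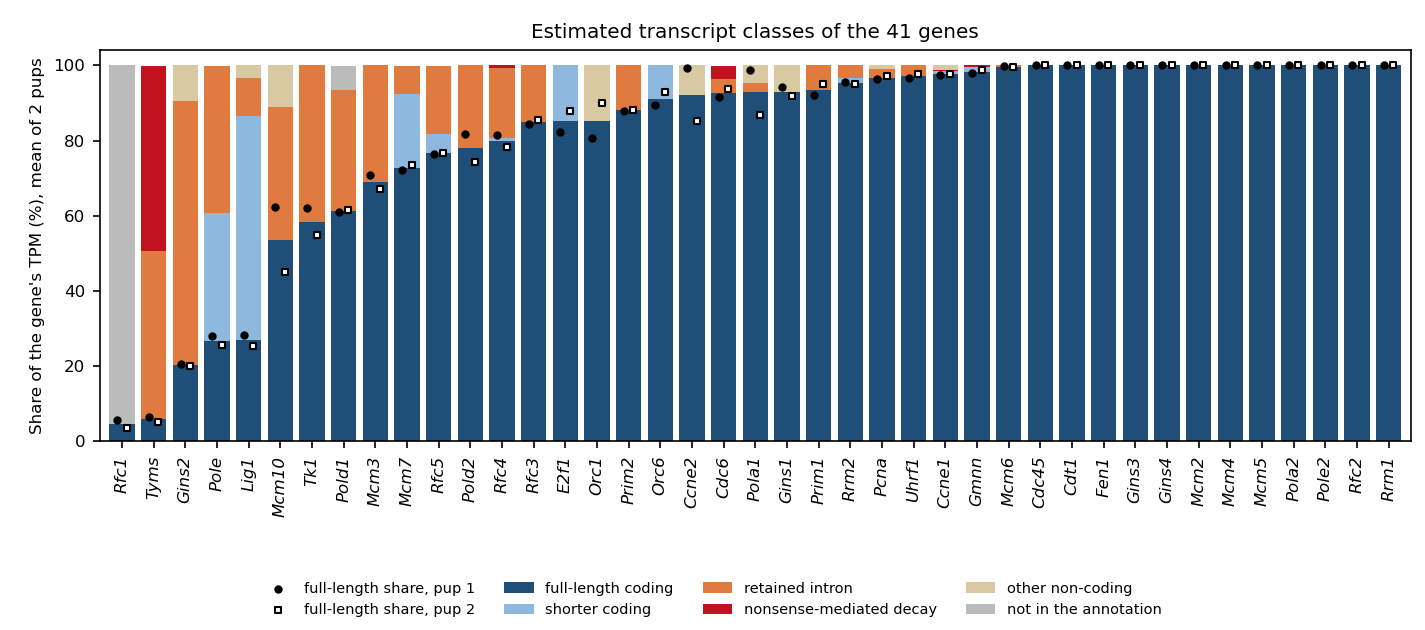
Share of each gene's TPM in percent held by each annotated transcript class, as stacked bars of the mean of 2 pups, with the full-length coding share of pup 1 (filled circles) and pup 2 (open squares). Rfc1 is grey because its transcripts are mostly not in the annotation used, Tyms, Gins2, Pole and Lig1 have low full-length shares, and 12 genes at the right have nothing else, 9 of them because they have 1 annotated transcript.

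Some members share sequence with neighbours. In 13 genes exons overlapped those of a gene on the opposite strand: Mcm7, Gins2, Cdc45, Orc1, Orc6, Pole, Rfc2, Rfc4, Rfc5, Tk1, Lig1, Fen1 and Ccne2. In pup 1 the neighbour held more counts than the member for Orc6 (Vps35, 11277 counts), Rfc4 (Eif4a2, 6761 counts), Mcm7 (Cops6, 6235 counts), Rfc5 (Wsb2, 4606 counts), Fen1 (Tmem258, 3526 counts) and Cdc45 (Ufd1, 2939 counts). In pup 2 this held for the same 6 genes and also for Ccne2, where Ints8 held 857 counts against 582, after 1291 against 1442 in pup 1. The strand setting of the counting is not given in the sources used here, so reads in the shared exons cannot be assigned to one gene with certainty. The processed copies Pcna-ps1 and Pcna-ps2 held 0 and 56 counts in pup 1 and 0 and 29 in pup 2, against 3823 and 2415 for Pcna.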

How the data were processed

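Total RNA-seq libraries of 2 newborn mouse bladders were analysed from the gene and transcript tables the authors deposited in the layout of the RSEM estimator, on mm10 with GENCODE M4 per the file headers and listings. The aligner, the program versions and strand use were not given in the sources used here. Expected counts, as deposited, are raw read estimates, with reads that map to several places divided by the authors' estimator. The deposited TPM and FPKM values are scaled per length and depth, and the deposited percent values are each transcript's share of its gene. RNA was extracted with Ambion mirVana, and a manual of a SMARTer low-input kit is linked, per the labels' protocols. With 1 library per pup from 10 ng, p-values were not computed.

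Identifiers were matched to GENCODE M21 (42462 of 43346 genes). Expected counts were rounded and TMM-scaled (edgeR 4.0.16, R 4.3.3), and log2 ratios and Clopper-Pearson intervals at 95% were computed for genes averaging 20 counts or more. Intervals cover counting error only, since PCR copies are not told apart. The calculation was tested on simulated data. Spike-in entries (363 and 275 ERCC counts) and entries with numeric identifiers were left out of levels and scaling. Motifs were searched in RefSeq promoter windows of GRCm38.p6. Python 3.11.15, pandas 2.3.3, numpy 2.4.6, scipy 1.17.1 and matplotlib 3.10.9 were used. Alternatives covered scaling, count minimum, TPM threshold, transcript classes, length division and each pup alone.

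The members, lists and rules were chosen with earlier results of these data known. All 41 members are accounted for. Of the 62 further genes, the 3 highest and 3 lowest by level and, among those averaging 100 counts or more, the 2 lowest and 2 highest ratios are named. Transcripts are named where the leader was not protein-coding, held under 50% in both pups or differed between pups, and promoters where E2F-type matches were most. Other names were chosen after their values were seen.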

Additional observations from a re-analysis of the deposited data

How the results depend on the processing

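The number of genes lower in pup 2 was 37 to 40 of 41 and the number lower by at least 1.2-fold was 21 to 28 under every scaling, count minimum and correction tried, with the median log2 ratio between -0.37 and -0.28. Single genes did turn: Gins1, Gins4 and Pola2 changed sign with the ratio of TPM, and Rrm1 over Rrm2 was 0.98 in pup 1 alone and 1.11 in pup 2 alone. Subtracting the median of all genes in the same length bin or GC bin, chosen after seeing the data, gave 38 and 37 genes lower. At a threshold of 5 TPM, 37 of 41 were expressed. Subunit spreads depended on dividing by length: with expected counts not divided by length, the highest over the lowest subunit went from 2.34 to 2.04 for Mcm2 to Mcm7, from 7.33 to 4.64 for GINS and from 1.75 to 2.18 for replication factor C, and Rrm1 over Rrm2 went from 1.03 to 1.96. For replication factor C it was 2.14 over protein-coding and 2.28 over full-length coding transcripts, the latter chosen after seeing the data and both without Rfc1, whose transcripts are mostly missing from the annotation used. Levels moved by more than 1 SD for 4 of 41 genes with posterior mean TPM, 11 of 40 with coding and 14 of 40 with full-length coding transcripts. No paired analysis was possible because the labels give a single group. Depth limits the low genes most: Orc1 and Gins1, with 132 and 216 counts in pup 2, had intervals of -0.78 to -0.15 and -0.22 to 0.30.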

Other observations

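Of the 41 genes, 7 lie on chromosome 5 (Mcm7, Pole, Rfc1, Rfc2, Rfc3, Rfc5 and Tyms) and 6 on chromosome 8 (Cdt1, Gins2, Gins3, Gins4, Mcm5 and Orc6), so that 4 of the 5 clamp loader genes and 3 of the 4 GINS genes share a chromosome with another of their complex. The Mcm7 gene also holds the microRNA genes Mir25, Mir93 and Mir106b, which were listed at 0 counts in both pups in these libraries of RNA above 200 nt.

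The ratio between the pups varied with transcript length over all genes, and the replication genes were lower at each length. Over 5 bins of effective length from short to long, all genes had median log2 ratios of 0.07, 0.02, -0.02, -0.05 and -0.08, and the members -0.27, -0.26, -0.33, -0.26 and -0.48, the last over 2 genes only.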
